A study of Mus with 8 samples.

Results

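Lin-Sca1+Kit+ (LSK) cells of newborn Ifnar+/- mice were set against Lin-Kit+ (LK) cells of the same age and genotype. LSK cells are the fraction in which blood stem cells and the earliest multipotent progenitors are concentrated. LK cells are mostly progenitors that have entered one of the myeloid or erythroid lineages, and since the labels give LK no Sca1 gate, LK can also hold LSK cells. Cells were the barcodes with at least 7500 gene UMI (unique molecular identifiers, 1 per captured RNA molecule) and at most 10% of them in mitochondrial genes. This rule kept 5122 LSK and 5891 LK cells, 11013 of the 35549 cells that it kept in the whole series. The series measured RNA and 10 antibody tags in single cells (CITE-seq) of 8 libraries, 1 for each combination of fraction, age (P0, newborn, or P14, day 14 after birth) and genotype. Ifnar is the receptor of type I interferon, and the labels give all cells compared here as heterozygous for it. The labels name no organ, strain, sex, allele or number of animals, and do not say whether both fractions came from the same mice. With 1 library a side there is no replicate error and no test: every interval here covers counting error only, and a difference between the fractions cannot be told apart from a difference between 2 libraries.

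Stem cells sit at the top of blood formation and are kept in that state by a small set of transcription factors, among them Mecom, Hlf and Meis1. Their progeny lose these factors step by step while they take up the programme of a lineage: granule proteases in neutrophil progenitors, globin and heme synthesis under Gata1 and Klf1 in erythroid progenitors, antigen receptor recombination in lymphoid progenitors. Type I interferon signals through Ifnar, the kinases Jak1 and Tyk2 and STAT and IRF factors to a set of antiviral genes, and Ly6a, which encodes the Sca1 protein used for the sort, is itself an interferon-responsive gene in the mouse.

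The libraries differed in depth. LSK cells had a median of 32316.5 gene UMI and 5889 genes, and LK cells 46231 gene UMI and 6270 genes. Mitochondrial UMI had medians of 4.12% in LSK and 3.84% in LK. The sums over all cells were 177371801 gene UMI in LSK and 302507736 in LK, and levels are given relative to these sums, as CPM. The mitochondrial limit left out 20 LSK and 242 LK barcodes. Just under the UMI minimum, between 5000 and 7500 UMI, lay 41 LSK and 243 LK barcodes, and just over it, up to 10000 UMI, 42 and 142. The libraries shared 10 cell barcodes. Among cells with reads of Xist or of Y-linked genes but not of both, the reads were Y-linked in 29.7% of LSK and 22.0% of LK cells.

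The sort was checked first on its own proteins. Ly6a (chromosome 15, 74994877 to 74998031, build GRCm38.p6) had 75.9 CPM (exact Poisson 95% interval 74.6 to 77.2) in LSK and 11.2 CPM (10.8 to 11.6) in LK, a ratio of 6.78 (exact 95% interval 6.53 to 7.04). With each cell thinned to 7500 UMI, 40.8% of LSK and 9.44% of LK cells had a Ly6a UMI. Among LK cells with erythroid markers, which should lack it, the share was 0.586%. This share, like those of other genes in these cells below, is a background for the LK library only. Free RNA, read from barcodes with 100 UMI or fewer, had 65.4 CPM of Ly6a in the LSK and 10.1 CPM in the LK library. Kit, the receptor on which both fractions were sorted, had 157 CPM in LSK and 146 CPM in LK. So the gene of the protein that separates the sorts stood apart, and the gene of the protein they share was within 1.1-fold.

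Among the antibody tags, the tag named SA_PE, whose target the files do not state, had a median of 458 UMI per cell in LSK and 41 in LK. It was above the LK median in 99.3% of LSK cells, and 6.96% of LK cells were above the LSK median. In both libraries its median was higher in cells with a Ly6a UMI than in those without, 578 against 402.5 in LSK and 383.5 against 35 in LK. This pairing with Ly6a was chosen after the values were seen. The CD117 tag, which reads the Kit protein, had medians of 687 in LSK and 722 in LK. As a share of all tag UMI it was lower in LSK, 11.4% against 16.4%.

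Of the other stem cell and lymphoid tags, CD201 (the Procr protein) had a median of 28 UMI in LSK and 7 in LK. CD34 had 206.5 and 44, CD135 (the Flt3 protein) 31 and 8, and CD127 (the Il7r protein) 21 and 11. For these 4 tags, from 76.1% to 96.4% of LSK cells lay above the LK median. CD48, a protein carried by most progenitors and little by stem cells, was spread widest among LSK cells, with the 10th percentile at 429 and the 90th at 8527, against 1002 and 6312 in LK. LSK therefore had both the lower 10th and the higher 90th percentile of CD48 tag UMI. These UMI are not scaled, and the median total of tags per cell was 6409.5 in LSK and 4757 in LK. The higher upper end is thus not read as more CD48. As a share of all tag UMI, CD48 took 71.1% in LSK and 71.3% in LK.

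CD16_32, the Fc receptors of myeloid progenitors, and CD41, a protein of megakaryocytes (the Itga2b protein), differed mainly in their upper tails. CD16_32 had medians of 62 in LSK and 58 in LK, but 90th percentiles of 206 and 668. CD41 had medians of 14 and 19 and 90th percentiles of 45 and 121. CD150 (the Slamf1 protein), found on stem cells and on megakaryocyte and erythroid progenitors, had medians of 21 and 18 and 90th percentiles of 189 and 245. Its share of all tags was lower in LSK, 1.10% against 1.5%, so for CD150 and CD16_32 the median per cell and the share of tags point in opposite directions. Tag and RNA went together most for CD34 in LK cells, with a Spearman rho of 0.68 over 5891 cells that share a library and a depth range. The lowest was CD117 with Kit in LSK cells, at 0.018.

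**Figure D1:**
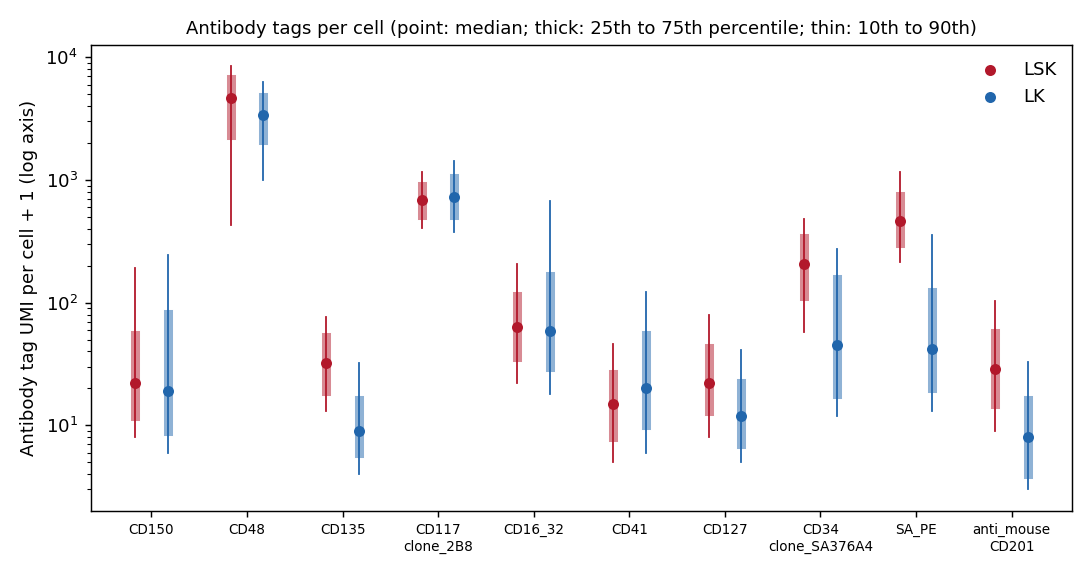
Antibody tag UMI per cell plus 1 on a log axis for the 10 tags, in LSK (red) and LK (blue) cells. Points are medians, thick bars run from the 25th to the 75th percentile and thin bars from the 10th to the 90th. By unscaled medians SA_PE separates the libraries most, with 458 and 41, and CD117 hardly at all, with 687 and 722. As a share of all tag UMI, CD117 had 11.4% in LSK and 16.4% in LK.

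Over all genes the difference between the fractions was broad. Of 14403 genes with at least 50 UMI in LSK or LK, 2695 (18.7%) were at least 2-fold higher in LSK and 782 (5.43%) at least 2-fold lower. At 4-fold the counts were 688 and 383. The median log2 ratio of LSK over LK over all these genes was 0.25, with quartiles of -0.13 and 0.76, so a gene at 0 on this scale lay under the middle of the genes. The split depends on how the libraries are scaled. With TMM factors, which put that median at 0.0010, 1996 genes were higher and 1058 lower. In UMI per cell without scaling, where the median was -0.32, 1350 were higher and 1815 lower. The shallower LSK cells thus had fewer UMI of most genes and a larger proportion of them in many genes. List medians over all cells of this pair are to be read against 0.25. Counts of list genes at least 2-fold apart over all cells are to be read against 18.7% higher and 5.43% lower. Lists were read over genes with at least 20 UMI in both libraries together.

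Most transcription factors of stem cells were higher in LSK. Of 18 factors, 10 were at least 2-fold higher in LSK and 0 at least 2-fold lower, with a list median of 1.42. Nkx2-3, a homeobox factor, had 40.0 CPM in LSK and 6.27 CPM in LK, a 6.37-fold difference. Mecom (chromosome 3, 29951296 to 30509759), needed to maintain stem cells, had 65.5 CPM and 10.7 CPM. Hlf, a bZIP factor that marks them, had 267.6 CPM and 48.7 CPM and was seen in 71.1% of thinned LSK cells and 22.9% of LK cells. Among LK cells with erythroid markers 2.98% had a Hlf UMI.

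The homeobox genes Hoxa9, Hoxa10 and Hoxb5 were 4.28-fold, 5.86-fold and 5.66-fold higher in LSK. Mycn, a Myc family member, was 4.72-fold higher, Erg 3.34-fold and Meis1 2.97-fold. Factors that progenitors of several lineages keep differed less. Runx1 had 158 CPM in LSK and 125 CPM in LK, Gata2 47.2 and 43.4 CPM, and Bmi1 25.4 and 18.4 CPM. Tal1, which erythroid cells also use, was the one factor of the list with less in LSK, 35.9 against 59.1 CPM.

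Surface and signalling genes of stem cells followed the same order, with 13 of 16 at least 2-fold higher in LSK, 0 at least 2-fold lower and a median of 1.56. Procr (chromosome 2, 155751125 to 155755478), which encodes CD201, had 23.7 CPM (23 to 24.5) in LSK and 3.32 CPM (3.11 to 3.53) in LK, a ratio of 7.16. It was found in 17.7% of LSK and 3.94% of LK cells, and in 0.0489% of LK cells with erythroid markers. Robo4, a receptor of the Robo family, was 6.64-fold higher, the adhesion protein Esam 5.15-fold, Fgd5 4.04-fold and the angiopoietin receptor partner Tie1 3.61-fold. Cd34 had 345 CPM and 113 CPM. Slamf1, the gene of CD150, had 4.98 CPM and 5.6 CPM, and Cd63 104 CPM and 124 CPM.

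Lymphoid priming genes had a median of 1.69, with 15 of 17 at least 2-fold higher and 0 lower. Flt3 (chromosome 5, 147330741 to 147400489), a cytokine receptor of multipotent and lymphoid progenitors, had 125 CPM in LSK and 27.6 CPM in LK and was seen in 53.8% and 18.7% of cells. Lsp1 was 4.03-fold higher, Cd27 3.42-fold, Notch1 3.36-fold and Satb1, a chromatin organizer of lymphoid cells, 3.05-fold. Ighm, the immunoglobulin heavy chain locus, had 71.5 CPM and 20.6 CPM.

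Genes of later lymphoid steps were rare on both sides. Il7r, the interleukin 7 receptor, had 10.7 CPM in LSK and 3.33 CPM in LK, in 4.16% and 2.0% of cells. Ccr9, a receptor for homing to the thymus, had 15.7 CPM and 3.06 CPM. Rag1 and Rag2, which cut antigen receptor genes, had 1.21 and 3.42 CPM in LSK and 0.397 and 1.06 CPM in LK. Dntt, which adds bases at the joints, had 77 UMI in LSK and 31 in LK, a ratio of 4.24 (2.76 to 6.65). Bcl11a, a factor of early lymphoid cells, was 1.28-fold higher in LSK.

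**Figure D2:**
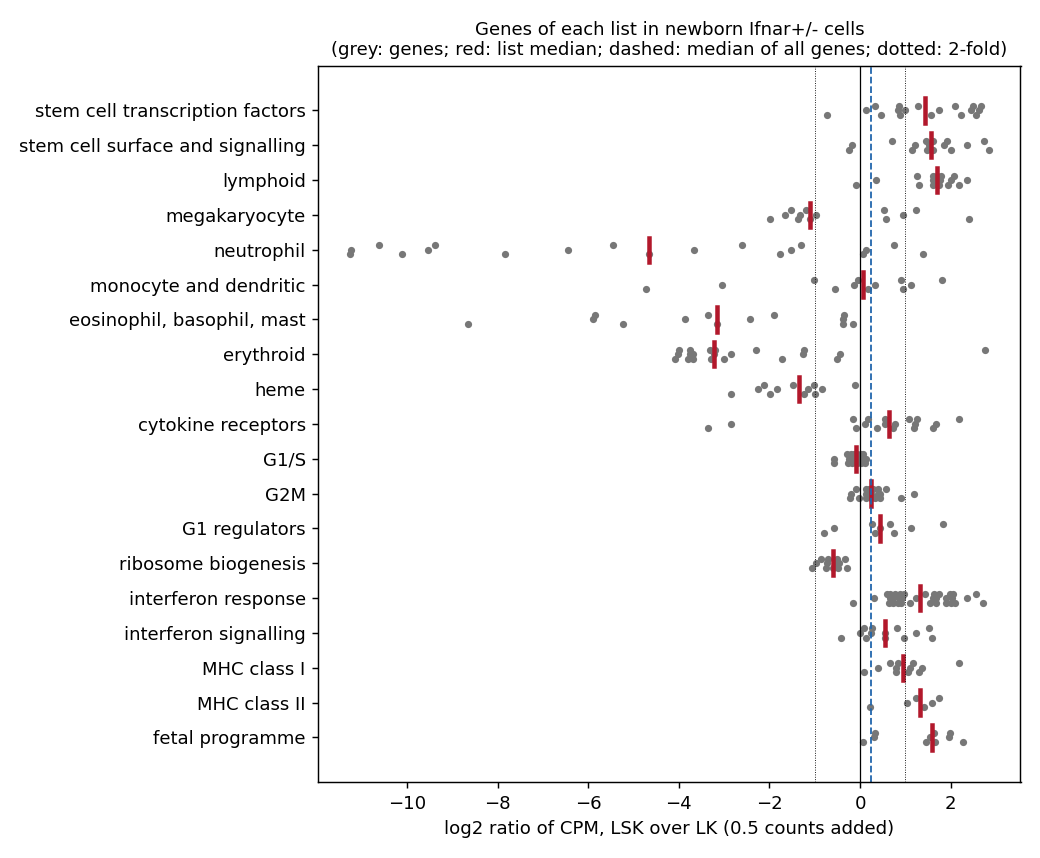
Log2 ratio of CPM, LSK over LK, for each gene with at least 20 UMI (grey points) in 19 gene lists, with the list median (red) and the median of all genes at 0.25 (dashed blue). Stem cell, lymphoid, interferon response and fetal lists lie right of 1 by their medians, neutrophil, eosinophil, basophil and mast, and erythroid lists lie left of -3, and the cell cycle lists lie near 0.

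Neutrophil genes were lower in LSK by large ratios. Of 19 read, 15 were at least 2-fold lower in LSK and 1 at least 2-fold higher, with 4 higher at any ratio. The median was -4.66, or -1.50 with 5 CPM added. Elane (chromosome 10, 79886312 to 79888216), neutrophil elastase, had 6.17 CPM (5.81 to 6.55) in LSK and 542 CPM (540 to 545) in LK, 87.8-fold lower in LSK. Ctsg (cathepsin G) was 12.6-fold lower and Ms4a3, a membrane protein of granulocyte and monocyte progenitors, 43.5-fold lower. Cebpe, the factor of late granule genes, was 25.3-fold lower.

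The earliest proteases were much less uneven. Prtn3 (proteinase 3), which lies next to Elane at 79879667 to 79883174, had 383 CPM in LSK and 1296 CPM in LK. It was found in 82.0% of thinned LSK cells and 66.4% of LK cells, and in 28.6% of LK cells with erythroid markers. Mpo (myeloperoxidase) had 367 CPM and 1048 CPM, and was found in 57.0% and 59.6% of cells. Without thinning the Prtn3 shares were 95.8% in LSK and 96.0% in LK. The free RNA of the LSK library held 389.6 CPM of Prtn3, about the level of its cells, so no order of expressing cells is read from these shares. This was not particular to Prtn3. The same free RNA held 65.4 CPM of Ly6a, 21.5 CPM of Procr and 115 CPM of Flt3, against 75.9, 23.7 and 125 CPM in LSK cells. Such a match does not give the part of free RNA in a cell's counts, which was not tested. The other shares of cells given here carry this limit too. The summed level of Prtn3 was 3.38-fold lower in LSK. Gfi1, a repressor active in stem cells and in neutrophil progenitors, was the member at least 2-fold higher, 32.1 against 12.3 CPM.

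Several genes of late neutrophil maturation were almost absent from LSK. Ltf (lactoferrin), a gene of secondary granules, was not, with 1.43 CPM in LSK and 0.85 CPM in LK, in 1.41% and 0.356% of cells. S100a8 (chromosome 3, 90669071 to 90670034) had 36 UMI in LSK and 97617 in LK, a ratio of LK over LSK of 1590 (1148 to 2270). Its partner S100a9, at 90692630 to 90695721, had 39 and 73983 UMI. Camp, a granule peptide, had 4 and 18751 UMI. Ngp and Chil3 had 0 UMI in LSK against 2059 and 634 in LK, at least 402-fold and 124-fold lower against a floor of 3 counts, or 0.0169 CPM, in the LSK library. Fcnb had 2 and 2826 UMI, a ratio of 828 (229 to 6844). Lcn2 had 3 and 1356 UMI, a ratio of 265 (90.5 to 1287). The stefin-like genes Stfa1, Cstdc4 and Cstdc5, which lie together on chromosome 16 and are close copies of each other, had 35, 6 and 27 UMI in LSK against 93418, 10573 and 60628 in LK, and their split between copies is uncertain. In thinned LK cells 10.3% had a S100a8 UMI and 2.73% a Camp UMI, against 5.37% and 0.83% of LK cells with erythroid markers. Without thinning the LK shares were 37.2% and 9.83%. The free RNA of the LK library held 440 CPM of S100a8 and 76.1 CPM of Camp, more than the 323 and 62.0 CPM of its cells, so these shares are not read as shares of expressing cells. The part of free RNA in these differences was not tested.

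All 13 eosinophil, basophil and mast cell genes were lower in LSK, 9 of them at least 2-fold, with a median of -3.16, or -0.90 with 5 CPM added. Prg2, the eosinophil major basic protein, had 8 UMI in LSK and 5875 in LK. Mcpt8, a basophil protease, was 10.2-fold lower, Ms4a2, a chain of the IgE receptor, 14.6-fold, Hdc, which makes histamine, 8.95-fold and Cpa3, a mast cell carboxypeptidase, 5.40-fold. Monocyte and dendritic genes had no common direction, with 2 of 12 at least 2-fold higher, 3 at least 2-fold lower and a median of 0.066. Ly6c2 and F13a1, of monocytes and their progenitors, were 26.5-fold and 8.27-fold lower in LSK. Ctss (cathepsin S) was 3.49-fold higher, and Irf8, the factor of monocyte and dendritic fate, had 42.1 CPM in LSK and 46.3 CPM in LK. The median of this list was negative under 4 of the other ways to scale or weight the cells.

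Megakaryocyte genes were split, with 2 of 13 at least 2-fold higher, 7 at least 2-fold lower and a median of -1.10. The shares over all genes were 18.7% higher and 5.43% lower. With 5 CPM added, which shrinks ratios of low genes, this median was -0.081. Pf4, platelet factor 4, had 8.96 CPM in LSK and 35.7 CPM in LK but was found in 4.80% and 4.48% of thinned cells. The median positive cell had 1 Pf4 UMI on both sides. Itga2b was 2.87-fold lower in LSK. Gp9 (19.9 and 10.3 CPM), Selp (6.10 and 2.59 CPM) and Vwf (4.76 and 3.29 CPM) were higher in LSK.

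Erythroid genes were at least 2-fold lower in LSK in 18 of 21 cases, and 1 was higher, with a median of -3.22. Klf1 (chromosome 8, 84901982 to 84905291), the erythroid Krüppel-like factor, had 7.06 CPM in LSK and 95.4 CPM in LK, 13.5-fold lower. Gata1 was 9.83-fold lower, Epor, the erythropoietin receptor, 7.25-fold, Car1 (carbonic anhydrase) 17.1-fold, and Ermap and Rhag, membrane proteins of red cells, 16.3-fold and 12.9-fold. Tfrc, which brings in iron, was 3.29-fold lower. Car2 was under 2-fold apart, with 341 and 488 CPM.

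Hbb-bt was the one erythroid gene that was higher in LSK. This adult beta globin gene (chromosome 7, 103812524 to 103813923) had 822 CPM (818 to 827) in LSK and 121 CPM (120 to 123) in LK, a ratio of 6.77. It was found in 57.7% of LSK and 21.8% of LK cells, and in 9.87% of LK cells with erythroid markers. The alpha globins went the other way, with Hba-a1 7.98-fold and Hba-a2 4.91-fold lower in LSK. Hbb-bs, a nearly identical neighbour at 103826523 to 103827928, had 4.27 CPM in LSK and 5.79 CPM in LK, so both values are uncertain, and the split of reads between the copies was not tested. In barcodes with 100 UMI or fewer, which hold free RNA, Hbb-bt had 849 CPM in the LSK and 160.1 CPM in the LK library. The part of free RNA in this difference was not tested. Because of Hbb-bt the summed erythroid CPM, 1274 in LSK and 1547 in LK, differed far less than the median gene.

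All 12 genes of heme synthesis and iron uptake were also lower in LSK, 9 of them at least 2-fold, with a median of -1.36. Cpox, the coproporphyrinogen oxidase, was 7.17-fold lower, Fech, which inserts the iron, 4.32-fold, and Alad 3.56-fold. Alas1, which is not specific to red cells, was 2.03-fold lower. Slc25a37, a mitochondrial iron carrier, had 24.8 and 26.7 CPM. Mt1, a metallothionein that binds zinc and copper, showed one of the largest differences in level outside these lists, 77.5 CPM in LSK and 1268 CPM in LK. It was found in 6.36% of LSK and 71.1% of LK cells, and in 98.7% of LK cells with erythroid and 56.8% of those with neutrophil markers. The free RNA of the LK library held 1270 CPM of Mt1, about the level of its cells, so these shares are not read as shares of expressing cells.

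Marker gates were used to see how many cells lay behind these sums. A cell passed a gate when it had at least 3 UMI of 3 to 6 marker genes after thinning to 7500 UMI, and a cell could pass several. The stem gate (Procr, Mecom, Hlf) held 47.7% of LSK cells (exact 95% interval 46.3 to 49.1) and 11.1% of LK cells (10.3 to 11.9). The lymphoid gate (Flt3, Il7r, Dntt, Ighm, Satb1) held 35% and 12.0%. The erythroid gate (Klf1, Gata1, Epor, Ermap, Car1, Rhag) held 1.70% (1.36 to 2.09) of LSK and 36.8% (35.6 to 38) of LK cells. Monocyte and eosinophil, basophil and mast gates held 2.71% and 0.371% of LSK cells against 12.0% and 5.67% of LK cells, and the megakaryocyte gate 1.39% against 3.07%.

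The neutrophil gate (Elane, Prtn3, Ctsg, Ms4a3) held nearly equal shares, 43.1% of LSK and 44.0% of LK cells. Its cells were not alike, with a median of 4 gate UMI in LSK and 13 in LK. When Prtn3 was left out of the gate, a choice made after these values were seen, it held 2.62% of LSK and 24.1% of LK cells. In total 12.5% of LSK and 9.52% of LK cells passed no gate, and 32.7% and 26.1% passed exactly 2. Gate shares move with depth and with the minimum chosen, so their size holds only for 7500 UMI and 3 gate UMI. For the neutrophil gate the direction moved too, from -14.3 percentage points, LSK minus LK, at 4000 UMI to 7.64 with at least 2 gate UMI.

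**Figure D3:**
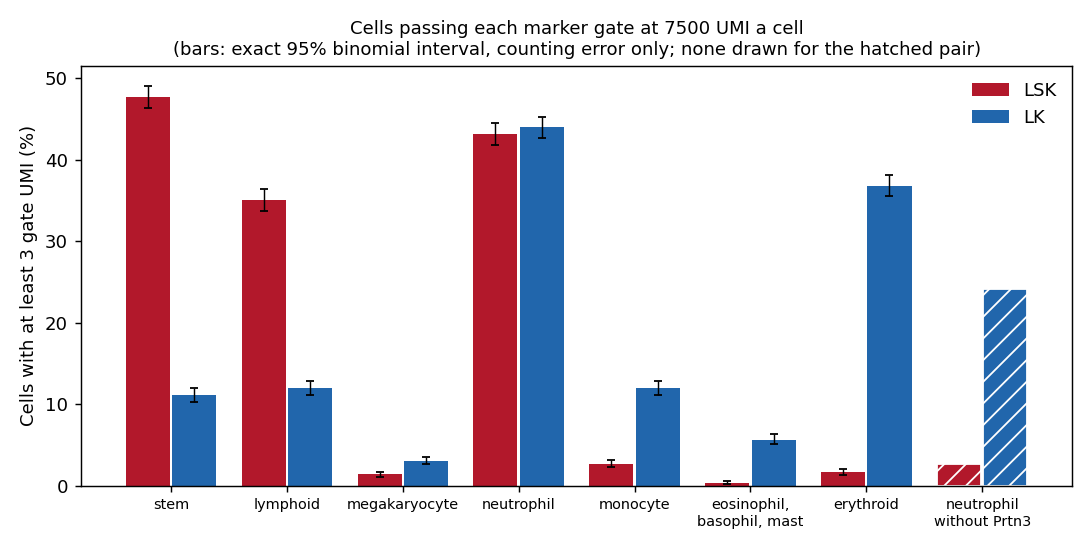
Share of LSK (red) and LK (blue) cells with at least 3 UMI of each gate's marker genes, every cell thinned to 7500 UMI, with exact 95% binomial intervals that cover counting error only. The stem gate holds 47.7% and 11.1% of cells, the erythroid gate 1.70% and 36.8%, and the hatched bars show the neutrophil gate without Prtn3, at 2.62% and 24.1%.

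Interferon response genes were higher in LSK as a group. Mx1 and Mx2 of the list were not found by name. Of the 34 others, 19 were at least 2-fold higher, 0 at least 2-fold lower, and 33 lay above the median of all genes. The list median was 1.33. Iigp1, an interferon-induced GTPase, had 15.8 CPM in LSK and 2.40 CPM in LK, a ratio of 6.59. Ifi44 was 5.89-fold higher, with UMI in 20.1% of LSK and 4.85% of LK cells. Ifit3 was 5.16-fold higher, Oas2 4.26-fold, Ifit1 4.16-fold and Oasl2 4.07-fold. Isg15, a ubiquitin-like modifier, had 113 CPM and 33.6 CPM, and Irf7, which amplifies the response, 74.2 CPM and 23.1 CPM.

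The signal carriers themselves were closer. Ifnar1 (chromosome 16, 91485032 to 91510523) had 31.2 CPM (30.3 to 32) in LSK and 15.8 CPM (15.3 to 16.2) in LK, and Ifnar2 94.6 and 64.9 CPM. Stat2 and Irf9 were 1.79-fold and 1.66-fold higher in LSK. Jak1 had 124 and 103 CPM, Jak2 24.4 and 24.3 CPM and Tyk2 13.7 and 12.9 CPM. Irf1 and Irf2 were 3.01-fold and 2.37-fold higher. Ifngr1, a receptor chain of interferon gamma, was lower, 110 against 146 CPM. Cmpk2 was the one response gene that was lower in LSK, 15.7 against 17.5 CPM. Of the 13 signalling genes 3 were at least 2-fold higher, with a median of 0.54. This count is not far from the 18.7% of all genes that were at least 2-fold higher.

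MHC class I genes and those of its peptide supply had a median of 0.95, with 6 of 12 at least 2-fold higher. B2m, the light chain, had 822 CPM in LSK and 335 CPM in LK. H2-K1 and H2-D1, the heavy chains, had 403 and 376 CPM in LSK against 186 and 181 CPM in LK. Psmb9, an immunoproteasome subunit, was 2.24-fold higher and Nlrc5, the class I transactivator, 4.56-fold at 4.19 and 0.919 CPM. Of 6 MHC class II genes 5 were at least 2-fold higher in LSK and 0 lower, with a median of 1.33. The other, H2-Ab1, a class II beta chain, had 29.3 CPM in LSK and 25.1 CPM in LK and was found in 6.35% and 11.6% of cells. H2-DMa, which helps to load the peptide, was found in 36% and 24.3%. Cd74 had 41.3 CPM in LSK and 12.4 CPM in LK, found in 5.54% and 1.41% of cells, and H2-Aa 20.7 and 6.87 CPM, in 0.859% and 0.441%.

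All 10 genes of the fetal programme were higher in LSK, 7 of them at least 2-fold, with a median of 1.59, or 0.60 with 5 CPM added. Hmga2, a chromatin protein of fetal stem cells, had 330.2 CPM and 114 CPM. Igf2bp2 and Igf2bp1, RNA-binding proteins, were 3.12-fold and 3.95-fold higher, and the imprinted transcripts H19 and Igf2 4.84-fold and 3.92-fold. Lin28b, which blocks let-7 maturation, had 23 CPM in LSK and 21.8 CPM in LK. Igf2bp3 and Arid3a were 1.26-fold and 1.24-fold higher. The programme's central regulator thus had nearly the same level in both fractions, while most of the other genes differed.

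The cell cycle lists had medians within 2-fold. The 20 G1/S genes had a median of -0.090, and 0 were 2-fold apart. The 20 G2M genes had a median of 0.25, close to that of all genes, with Kif23, a kinesin of cell division, 2.29-fold higher in LSK. The share of thinned cells with at least 3 G2M UMI was 65.4% in LSK (64.1 to 66.7) and 80.8% in LK (79.8 to 81.8). The summed G2M level went the other way, 2724 CPM in LSK and 2248 CPM in LK, so no order of cycling is read from these. Inside the stem gate the shares were 55.5% and 53.6%, and inside the erythroid gate 93.1% and 92.7%. The lymphoid gate had 69.0% and 70.1%, and the monocyte gate 76.3% and 84.5%. The eosinophil, basophil and mast gate had 78.9% of 19 LSK and 68.6% of 334 LK cells. In the megakaryocyte gate the shares were 57.7% and 80.7%, and in the neutrophil gate 66.9% of LSK and 76.4% of LK cells. The median cell of the neutrophil gate had 9 G2M UMI in LSK and 8 in LK. Its G2M list had a median log2 ratio of 0.40, against 0.19 for all genes, so share and level went in opposite directions there too. The G2M list had a median of 0.26 inside the stem gate, against 0.029 for all genes.

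Of the regulators of G1, Cdkn1c, an inhibitor that keeps stem cells quiescent, was 3.56-fold higher in LSK with 38.7 CPM, and Cdkn1a 2.17-fold. Cdk6 had 222 CPM in LSK and 332 CPM in LK, and Myc 76.7 and 127 CPM. All 13 genes of ribosome biogenesis were lower in LSK on the CPM scale, 1 of them at least 2-fold, with a median of -0.60. Nolc1, a nucleolar chaperone, had 151 and 314 CPM, and Ncl (nucleolin) 1570 and 2562 CPM. Of 18 receptors of blood cytokines, 7 were at least 2-fold higher in LSK and 2 at least 2-fold lower. At any ratio 14 were higher, and the list median was 0.64. Csf3r, the receptor of G-CSF, was 2.10-fold higher and Il6st, the shared chain of the interleukin 6 family, 2.28-fold, while Il1rl1, the interleukin 33 receptor, was 10.3-fold lower.

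The 15 higher genes ranked first by the end of the counting interval nearest 1 were Cxcl2, Gm32554, Sox18, Chga, Wfdc10, Ddx4, Ndnf, Fam155a, Chil5, Wfdc2, Hbb-bt, Procr, Cxcr3, Bcam and Arhgap8. Most are low genes. Sox18, a SoxF factor of endothelial cells, had 8.63 CPM in LSK and 0.919 CPM in LK and was found in 6.77% and 1.19% of cells. Ddx4, an RNA helicase of germ cells, had 22.7 and 2.99 CPM, in 15.3% and 3.21% of cells. Chga (chromogranin A), a protein of secretory granules, had 1.95 and 0.188 CPM. Cxcr3, a chemokine receptor, had 4.37 and 0.562 CPM, and Bcam, a laminin receptor, 7.19 and 0.962 CPM. Cxcl2, a chemokine, had 66 and 2 UMI, a ratio of 56.3 (15 to 474), and was found in 0.195% of thinned LSK cells. Without thinning it was found in 0.332% of LSK cells, and the interval takes UMI of the same cell as independent. Its log2 ratio was 3.85 in the P0 Ifnar-/- pair, 0.249 in P14 Ifnar+/- and 0.265 in P14 Ifnar-/-. The lower genes by the same rule were the neutrophil and eosinophil genes above with Wfdc21, Prss34, a basophil protease, and Olfm4.

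By difference in level, the higher genes were led by mitochondrial transcripts and Malat1, a nuclear RNA, with 4004 CPM in LSK and 2550 CPM in LK. H2afy, the histone variant macroH2A1, had 2044 and 962 CPM, Actb 3991 and 2939 CPM, and Ifitm3, a membrane protein induced by interferon, 1138 and 397 CPM. The mitochondrial genes mt-Co1, mt-Co2, mt-Co3 and mt-Atp6 and the ribosomal protein gene Rps24 were at most 1.22-fold higher, and lower in LSK when UMI per cell were compared without scaling. Lower genes included Mt1, Ncl, Rpl35, Rps12, Rps2 and Rplp1. They also included Hist1h2ap (788 and 2084 CPM) and Gm10076 (979 and 2429 CPM), which have near-identical copies in the genome and are given as uncertain, since the assignment of shared reads was not tested.

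Within the stem and lymphoid gates, LSK and LK cells were far more alike than the whole libraries. The gates pick cells alike in their markers, so genes that go with these markers can be alike by that choice. LK can also hold LSK cells, and the SA_PE tag had medians of 350 in LK cells of the stem gate and 41 in all LK cells. The part of such cells in the likeness was not tested. Between the 2442 LSK and 655 LK cells of the stem gate, with the gate genes left out, 45 of 12650 genes (0.356%) were at least 2-fold higher in LSK and 66 (0.522%) at least 2-fold lower. From the 10th to the 90th percentile the log2 ratios ran from -0.18 to 0.23, against -0.56 to 1.52 over all cells. Of the 2272 genes among these that were 2-fold higher over all cells, 28 (1.23%) were so within the stem gate. The lymphoid gate, with 1793 LSK and 705 LK cells, had 0.858% of genes higher and 1.01% lower.

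The median of all genes inside the stem gate was 0.029. There several lists that were higher in LSK over all cells had medians closer to 0. Stem cell factors had 0.026, lymphoid genes 0.22, interferon response genes 0.073, MHC class I genes 0.19 and fetal genes -0.0030. MHC class II genes had -0.94, the opposite sign to that over all cells. Isg15 had 129 CPM in LSK and 115 CPM in LK cells of the gate, and Ifi44 48.6 and 46.0 CPM. Ly6a had 109 and 90.7 CPM and Hmga2 332 and 320.2 CPM. Hbb-bt had 1379 and 979 CPM. Tags followed partly. The SA_PE median was 551 in LSK and 350 in LK cells of the stem gate, and CD34 169 and 132, but the median total of tags was also higher, 4789 and 3734.

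Neutrophil and erythroid genes were lower in LSK by their medians also within the stem gate. Of the 66 lower genes there, 56 were lower over all cells too, which is 84.8% of those in the gate and 17.1% of the 327 over all cells. Neutrophil genes had a median of -0.96 there, with 7 of 14 at least 2-fold lower in LSK, and erythroid genes -1.71, with 9 of 17 at least 2-fold lower. Elane had 0.377 CPM in LSK and 27.9 CPM in LK cells of the gate, Klf1 1.17 and 8.02 CPM, and Mt1 10.0 and 106 CPM. The free RNA of the LK library held 463 CPM of Elane, 67.9 CPM of Klf1 and 1270 CPM of Mt1, and that of the LSK library 11.1, 11.7 and 150 CPM. Removing the cells most like doublets changed the counts of the stem gate to 49 higher and 41 lower. The parts of free RNA and doublets in these remaining differences were not tested. The abundant genes Hist1h2ap (691 and 1908 CPM) and Gm10076 (927 and 2057 CPM) also kept their difference inside the gate.

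Other gates kept more of the difference. In the neutrophil gate, where LSK cells carried mainly Prtn3, 8.9% of 12995 genes were higher in LSK and 3.76% lower, and the neutrophil list had a median of -5.23 and the interferon list 0.87, against 0.19 for all genes. In the erythroid gate, with 87 LSK and 2168 LK cells, 4.57% were higher and 1.97% lower. Without the gate genes, the erythroid list had a median of 0.063 there. In the monocyte gate, with 139 and 705 cells, 5.53% were higher and 3.23% lower. The megakaryocyte gate had 71 and 181 cells, 3.37% higher and 1.78% lower. Its interferon list had a median of 1.42, with Isg15 at 67.7 CPM in LSK and 21.1 CPM in LK cells, and CD41 tag medians of 22 and 293. The cells of this gate were not alike, since 47.9% of its LSK but 4.42% of its LK cells also passed the stem gate. Exactly 3 gate UMI were found in 47 of the 71 LSK and 72 of the 181 LK cells. The part of this mix in the interferon difference was not tested.

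**Figure D4:**
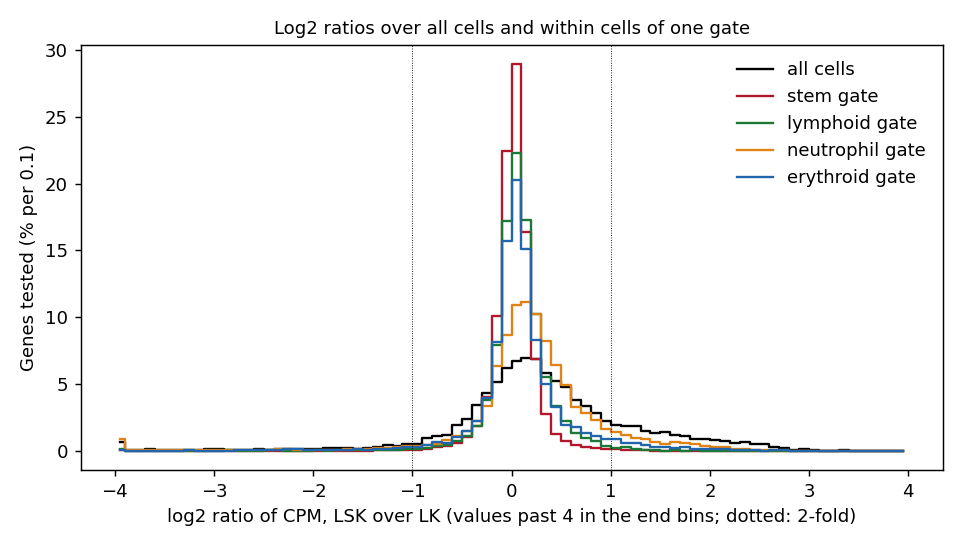
Distribution of log2 ratios of CPM, LSK over LK, over all cells (black) and within cells of one gate, in percent of the genes tested per 0.1 on the log2 scale. Dotted lines mark 2-fold, past which lie 0.356% and 0.522% of genes in the stem gate, on the higher and lower side, against 18.7% and 5.43% over all cells.

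The 3 other pairs of LSK and LK libraries share no library with this one and are set beside it. In the P0 Ifnar-/- pair, 3816 of the 14106 genes read in both pairs were 2-fold higher in LSK and 788 lower. Of the 2584 that were higher here, 2432 were higher there too, 94.1% of the genes here and 63.7% of those there. Of the lower genes it was 79.1% and 74.1%. In the P14 Ifnar+/- pair 1653 of 13480 genes were higher and 541 lower, and the shares were 63.0% of the higher genes here and 92.8% of those there, with 71.5% and 76.0% of the lower genes. In the P14 Ifnar-/- pair 2124 of 13593 were higher and 604 lower, with shares of 76.6% and 87.5%, and of 75.9% and 78.2% of the lower genes. The medians of all genes in these pairs were 0.45, 0.19 and 0.24, so list medians are not on one base across pairs. Medians of the stem cell factor list were 1.42 here, 2.13 in P0 Ifnar-/-, 1.19 in P14 Ifnar+/- and 1.34 in P14 Ifnar-/-. For the interferon list they were 1.33, 1.63, 1.07 and 1.02 in the same order, so interferon genes were higher in LSK also in the libraries labelled Ifnar-/-. Hbb-bt had log2 ratios of 2.76, 3.83, 2.06 and 2.30.

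The neutrophil list had medians of -4.66 here, -4.77 in P0 Ifnar-/-, -2.40 in P14 Ifnar+/- and -0.39 in P14 Ifnar-/-. Of the maturation genes, S100a8 had log2 ratios of -2.11 and -0.39 in the P14 Ifnar+/- and Ifnar-/- pairs and Fcnb -3.68 and -2.27, so both were lower in LSK in all 4 pairs. Others were higher in LSK in the P14 Ifnar-/- pair: Ngp had 8.44 CPM in LSK and 0.21 CPM in LK there, Chil3 1.56 and 0.047 CPM, Cstdc4 0.50 and 0.013 CPM, S100a9 29.8 and 22.5 CPM, and Lcn2 1.90 and 1.57 CPM. Camp had a log2 ratio of -11.26 here and -8.96 in P0 Ifnar-/-, but -1.69 and 2.09 in the P14 Ifnar+/- and Ifnar-/- pairs. The primary granule gene Elane had -6.46, -4.82, -5.73 and -5.43. Monocyte and dendritic genes had a median of 0.066 here and of -1.83, -1.43 and -1.21 in the other pairs. None of these differences between pairs was tested, since each pair has 1 library a side.

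**Figure D5:**
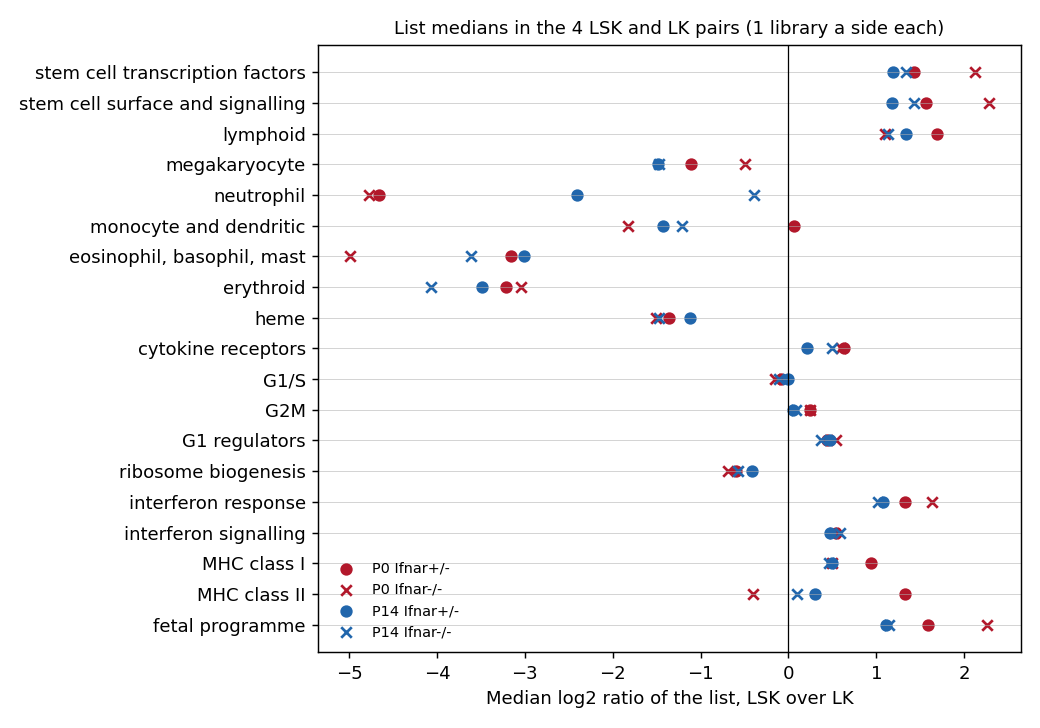
Median log2 ratio of each list, LSK over LK, in the 4 pairs of libraries: P0 in red, P14 in blue, Ifnar+/- as circles and Ifnar-/- as crosses, 1 library a side each. The monocyte and dendritic list lies at 0.066 in P0 Ifnar+/- and left of -1 in the other 3 pairs.

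Most markers of cells outside the sorted fractions were low. The hepatocyte list summed to 49.5 CPM in LSK and 36.0 CPM in LK, with all 9 genes found, of which Trf, also found in 29.4% of LK cells with neutrophil markers, had 33.8 and 22.7 CPM and Alb 2.93 and 1.79 CPM. The macrophage list of 11 genes summed to 4.44 and 12.6 CPM, while its median gene was higher in LSK at 1.53, since Slc40a1 alone had 1.21 and 9.82 CPM. C1qa had 100 and 41 UMI. The endothelial list of 7 genes summed to 458 and 174 CPM, nearly all of it Egfl7, Emcn and Pecam1, which stem cells also carry, and Cdh5 had 0.660 and 0.126 CPM. Of the stromal list, Lum had 0 UMI in both libraries and Col1a1 7 and 0, while Pdgfrb, with 15.5 and 10.1 CPM, was found in 9.55% of LSK and 8.66% of LK cells, and the list summed to 16.3 and 12.4 CPM. Of the list of mature lymphocytes, Cd79b, a chain of the B cell receptor complex, made up most with 46.0 and 23.1 CPM, in 29.2% of LSK and 18.8% of LK cells. Cd3e and Ncr1 had 0 UMI in both libraries, and the list summed to 53.3 and 25.8 CPM. The part of such cells in the differences above was not tested.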

How the data were processed

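The authors deposited counts: raw UMI per gene or antibody tag and barcode, with no cell filter. Cell Ranger 4 is named per the file headers, and Cell Ranger 6.0.1 with build mm10 per the submitters' processing notes; the annotation release is not given in the sources used here. Coordinates come from a RefSeq table of GRCm38.p6, the same assembly as mm10. UMI of the cells were summed per library, scaled to CPM, and log2 ratios taken after adding 0.5 counts; ratios and CPM have exact 95% intervals for counting error only. A gene was counted as apart at 2-fold, with at least 50 UMI in 1 of the libraries. Cells were thinned to 7500 UMI for shares of cells. LK cells with erythroid markers (2047) or neutrophil markers (2469) passed that gate and not the other. Scrublet in scanpy 1.11.5, at its own threshold, marked 146 LK and 0 LSK cells. No cells were removed as doublets, so the marked LK cells stay in the main values. As an alternative, 0.8% per 1000 cells, 278 LK and 210 LSK cells, were left out. Other alternatives changed cell limits, scaling (TMM of edgeR 4.0.16, median-of-ratios factors), weighting, the pseudocount, free RNA and gene minimums. Named genes were the 15 higher and 15 lower by the interval end nearest 1, the 10 higher and 10 lower by CPM difference, genes of the 26 lists and genes of the tags, sex genes aside; some genes the rule names are not reported here. The genes, lists and gates were chosen with earlier results of these data known. The calculation of ratios and intervals was checked on simulated independent Poisson counts, which hold no added spread between cells or libraries.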

Additional observations from a re-analysis of the deposited data

Results flagged for a closer look

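For each result here the LSK over LK ratio had one sign in newborn Ifnar+/- cells and the other in newborn Ifnar-/- or in P14 Ifnar+/- cells. Each pair has 1 library a side and the difference was not tested; where a value is near 0 or rests on few UMI, the change of sign carries little. Against P0 Ifnar-/-, on the log2 scale, the monocyte and dendritic list had a median of 0.066 here and -1.83 there, and the MHC class II list 1.33 and -0.40. The class II median here was 2.61 with expected doublets removed and 0.76 in UMI per cell. The macrophage list had 1.53 here and -1.12 there, and its value here was 0.75 with a minimum of 100 UMI and 0.039 with 5 CPM added. The share of the CD150 tag had -0.45 here and 0.68 there, while its median per cell was higher in LSK in both pairs, 21 against 18 here and 45 against 15 there. Against P14 Ifnar+/-, the monocyte and dendritic list had -1.43, Cstdc4 1.15 (here -9.90), Ngp 0.29 (here -11.24), Chil3 1.39 (here -9.54) and Prss34 0.20 (here -7.45). Few UMI stood behind 3 of these in the P14 pair, where Cstdc4 had 0.18 CPM in LSK and 0.080 CPM in LK, Ngp 0.16 and 0.13 CPM, and Chil3 0.061 and 0.020 CPM. Gm10076 had 0.012 there and -1.31 here, and Hist1h2ap 0.045 there and -1.40 here.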

How the results depend on the processing

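No paired analysis was possible because each group has 1 library. With 1 library a side, depth and library cannot be told apart from the fraction. Of the 2695 higher and 782 lower genes, 1.5-fold gave 4566 and 1365, 5 CPM added 477 and 219, and UMI per cell without scaling 1350 and 1815; of 9 other settings for each count, all stayed within 1.5 times. Medians are given as stem cell factors, lymphoid, neutrophil, erythroid and interferon lists, and kept their sign in every setting run. They were 1.17, 1.44, -4.91, -3.47 and 1.08 with TMM factors, 1.13, 1.40, -4.95, -3.51 and 1.04 with median-of-ratios factors, and 0.86, 1.12, -5.23, -3.78 and 0.76 in UMI per cell. They were 1.14, 1.15, -5.06, -3.42 and 1.08 with cells weighted alike, and 0.89, 1.07, -1.50, -1.93 and 0.87 with 5 CPM added. At most 5% mitochondrial UMI gave 1.44, 1.77, -4.60, -3.26 and 1.35. For the last 4 lists, at least 15000 UMI gave 1.79, -4.64, -3.20 and 1.34, and 5% free RNA removed 1.65, -4.62, -3.25 and 1.35. Expected doublets removed gave 1.92, -4.63 and -3.18 for lymphoid, neutrophil and erythroid lists, and a minimum of 100 UMI -5.05 and -3.26 for the last 2 of these. Differences in share, LSK minus LK in percentage points, were 36.6 in the stem gate, -35.1 in the erythroid gate and -15.4 in G2M cells. They were 20.9, -24.4 and -12.9 at 4000 UMI, 55.8, -46.8 and -9.80 without thinning, and 45.0, -39.5 and -12.6 with at least 2 UMI. At least 5 UMI gave 21.5 and -27.0 for the gates, and 5% mitochondrial UMI -36.7 for the erythroid gate. The neutrophil gate went from -0.838 to -14.3 at 4000 UMI, to -16.0 with at least 5 UMI and to 7.64 with at least 2. Signs turned in some values. The monocyte and dendritic median became -0.19 with TMM, -0.23 with median-of-ratios factors, -0.50 in UMI per cell and -0.16 with cells weighted alike. The G2M median became -0.0056, -0.049 and -0.32 in the first 3 of these. In UMI per cell G1 regulators had -0.13 and interferon signalling -0.026. The stromal list of 3 genes, at 0.62, had -0.58 at 15000 UMI, -0.62 at 5% mitochondrial UMI, -0.58 without doublets and -0.58 with 100 UMI. With TMM, median-of-ratios factors and UMI per cell, mt-Atp6 had -0.017, -0.060 and -0.33, Rps24 -0.065, -0.11 and -0.38, and mt-Co2 -0.065, -0.11 and -0.38. With the last 2 of these mt-Co3 had -0.0057 and -0.28 and mt-Co1 -0.040 and -0.31; Actb had -0.13 in UMI per cell. By median per cell the CD150, CD48 and CD16_32 tags had 0.22, 0.46 and 0.096 against -0.45, -0.0035 and -1.45 by share of tags, and CD48 0.39 by mean. The scaling settings shift all genes alike by construction; other causes were not tested.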

Other observations

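Within the lymphoid gate, genes of the stem cell list were higher in LSK cells than in LK cells. The transcription factors had a median log2 ratio of 0.41 and the surface genes 0.43, against 0.068 for all genes of that gate. Procr had 14.1 CPM in LSK and 7.03 CPM in LK cells of the gate, and Esam 9.23 and 4.54 CPM. Sox18, which is in neither list, had 5.79 and 1.45 CPM. The LK cells of the same gate had more monocyte and neutrophil RNA, with Irf8 at 60.4 CPM in LSK and 173 CPM in LK, Mpo at 388 and 923 CPM, and F13a1 at 3.76 and 57.4 CPM. Flt3 and Ighm are gate genes there and were not compared. The cells of this gate overlapped other gates unevenly. The stem gate also held 36.5% of its LSK and 19.9% of its LK cells. For the neutrophil gate these shares were 39.0% and 57.2%, and for the monocyte gate 3.74% and 18.6%. The part of this mix in the differences was not tested.

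Free RNA and cells had the same order of the libraries for all lists but the erythroid and macrophage lists. The stem cell factor list summed to 1646 CPM in barcodes with 100 UMI or fewer of the LSK library and 739 CPM in those of the LK library, against 1775 and 818 CPM in the cells. The eosinophil, basophil and mast list summed to 34.8 and 188 CPM in free RNA and 17.6 and 127 CPM in cells. The erythroid list had 1392 and 1378 CPM in free RNA and 1274 and 1547 CPM in cells. The macrophage list turned, with 27.5 and 13.5 CPM in free RNA and 4.44 and 12.6 CPM in cells. So did the gene mt-Co3, with 10850.0 and 18206 CPM in free RNA and 8428 and 6898 CPM in cells.

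Gene and tag counts went in opposite directions in depth. LSK cells had 33927990 tag UMI in all and LK cells 29739707, although LSK had fewer cells and fewer gene UMI per cell.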
